A study of Homo sapiens with 24 samples.

Results

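The human mitochondrial genome encodes 37 genes, and all 37 were present by symbol (MT- prefix) among the 60660 features of the expression tables. They comprised 13 protein genes, 2 ribosomal RNAs and 22 transfer RNAs. By the strand of their promoter, 12 protein genes, both rRNAs and 14 tRNAs are heavy-strand transcripts. MT-ND6 and the other 8 tRNAs are light-strand transcripts. The genes were followed in 24 libraries of 2 human prostate cancer lines, PC3 and LNCaP, with 3 libraries in each of 8 groups. Parental PC3 and LNCaP cells were measured without treatment (control) and after 10 µM Acetalax (oxyphenisatin acetate, a former laxative) for 4 h. Cells labelled as the chronic-exposure (CE) derivative of each line were measured in the same pair of conditions. Per the labels, CE cells had been selected for resistance by passage in rising Acetalax concentrations and were kept without drug before RNA was taken. The labels name no vehicle for the controls and do not say whether a CE line is a single clone. The lines were kept in different media (F-12 for PC3, RPMI-1640 for LNCaP), so line and medium cannot be told apart. RNA was enriched for poly(A) tails before library preparation.

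Mitochondrial DNA is transcribed from both strands into long precursors that are cut apart, mostly at the tRNAs that lie between the other genes. The protein genes encode core subunits of the respiratory chain: 7 subunits of complex I (MT-ND1 to MT-ND6 and MT-ND4L), cytochrome b of complex III (MT-CYB), 3 subunits of complex IV (MT-CO1 to MT-CO3) and a pair in the ATP synthase (MT-ATP6 and MT-ATP8). MT-RNR1 and MT-RNR2 are the 12S and 16S RNAs of the mitochondrial ribosome, and the tRNAs serve its translation. Most mitochondrial mRNAs carry poly(A) tails, the rRNAs carry short ones, MT-ND6 is known to lack a long tail, and mature tRNAs end in CCA. The values below are therefore levels of RNA recovered by poly(A) selection, and what share of each class was recovered was not tested.

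Totals of expected counts, the reads RSEM assigns to a gene, ranged from 40160832 to 57728014 per library. Libraries labelled CE had far lower summed levels of epithelial markers than their parental lines, though not all were absent. In PC3 CE controls KRT18, KRT8 and EPCAM averaged 15.8, 4.03 and 2.14 TPM. The summed TPM (transcript abundance scaled for length and library) of 5 epithelial markers was 5498 to 6309 in PC3 parental and 997 to 1187 in LNCaP parental libraries, but 21.8 to 28.4 in PC3 CE and 6.33 to 8.08 in LNCaP CE libraries. For 5 prostate luminal markers it was 3583 to 6682 in LNCaP parental and 0.66 to 2.86 in LNCaP CE libraries. For 5 fibroblast markers it was 1863 to 2270 in PC3 CE and 537 to 572 in LNCaP CE libraries, against at most 52.3 in parental libraries. In PC3 CE this sum was nearly all COL1A2 (2112 TPM on average in controls, against 0.18 in PC3 parental controls), while COL1A1 was lower than in PC3 parental controls (11.2 against 33.4 TPM) and PDGFRB stood at 0.89 TPM. COL1A1 averaged 12.2 TPM in LNCaP CE and 16.2 TPM in LNCaP parental controls, with overlapping libraries. Whether CE cells descend from the line on their label was not tested. PC3 CE and LNCaP CE are therefore names from the labels, and comparisons of CE with parental libraries are of libraries with different marker profiles. A further 3 libraries stood apart from their groups in 8 hypoxia markers. LNCaP parental control 2 and LNCaP parental Acetalax 3 summed to 309.9 and 306.0 TPM against 2127 to 2502 in the other LNCaP parental libraries. PC3 CE Acetalax 1 summed to 1223 TPM against 245 to 257 in the other PC3 CE libraries.

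As a class, mitochondrial transcripts made up 1.11% to 7.21% of all counts of a library. PC3 parental controls held the most, with 5.25%, 7.21% and 5.43% (5.96% ± 1.08, SD, n = 3). The PC3 parental libraries with Acetalax held 4.40%, 4.45% and 3.51% (4.12% ± 0.526, SD, n = 3), all below the controls. In LNCaP parental cells the share was 3.51%, 3.63% and 3.36% in controls (3.50% ± 0.133, SD, n = 3) and 3.01%, 2.60% and 2.96% with Acetalax (2.85% ± 0.223, SD, n = 3), again without overlap. PC3 CE libraries held 3.25%, 4.05% and 3.98% without and 4.45%, 5.04% and 3.59% with Acetalax, and these groups overlapped. LNCaP CE libraries held the least, with 1.44%, 1.30% and 1.54% without and 1.46%, 1.47% and 1.11% with Acetalax, and they overlapped too. In bulk libraries, fewer cells rich in mitochondrial RNA and less of it per cell cannot be told apart.

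Across all 4 kinds of cells, the Acetalax difference in mitochondrial share did not pass the test. The mean log2 ratio was -0.18, with strata at -0.53 (PC3 parental), -0.30 (LNCaP parental), 0.21 (PC3 CE) and -0.09 (LNCaP CE). A 2-sided exact permutation test within strata gave p = 0.0722, or 0.108 after Benjamini-Hochberg adjustment over 6 tests of shares. CE controls held a lower mitochondrial share than parental controls in both lines, with log2 ratios of -0.66 in PC3 and -1.30 in LNCaP. The exact permutation p for their mean was 0.005 (adjusted 0.015), the smallest that the 400 relabellings can give 2-sided.

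**Figure D1:**
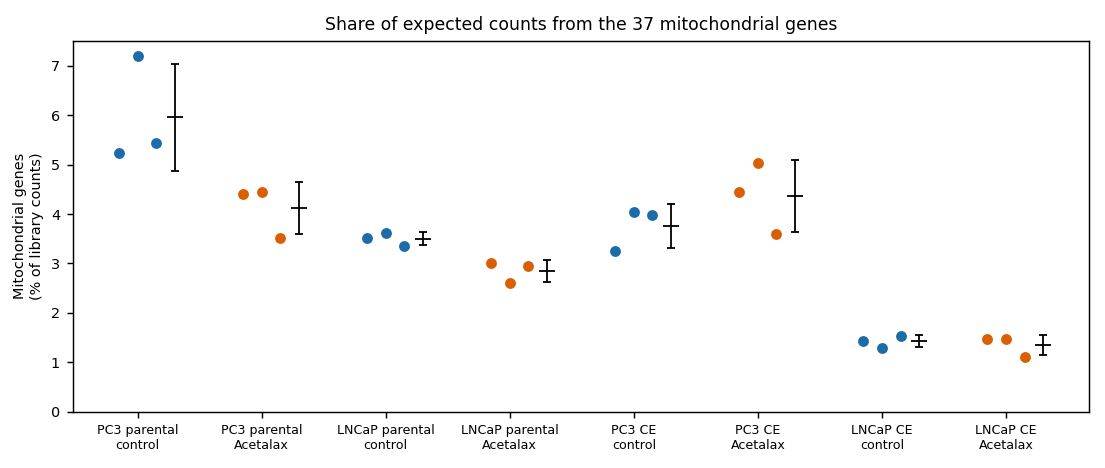
Share of library expected counts (%) that fell on the 37 mitochondrial genes. Points are the 3 libraries of each group (blue, control; orange, Acetalax), and bars are the mean ± SD. PC3 parental controls lie highest (5.25% to 7.21%) and LNCaP CE libraries lowest (1.11% to 1.54%).

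The 78 nuclear genes for respiratory chain subunits held 0.671% to 1.48% of counts over all libraries. Apart from the 4 of complex II, their products assemble with the mitochondrial ones. The 78 genes held 0.921% to 0.987% in PC3 parental controls and 1.24% to 1.30% in LNCaP CE controls, the reverse order of the mitochondrial share. Counts on the 13 mitochondrial protein genes were 4.95 ± 0.968 (SD, n = 3) times those on the 78 nuclear ones in PC3 parental controls. The ratio was 1.93 ± 0.312 in LNCaP parental, 2.97 ± 0.450 in PC3 CE and 0.969 ± 0.103 in LNCaP CE controls (SD, n = 3 each). On the TPM scale, which weights short genes more, the 37 genes made up 2.58% to 14.0% of a library.

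Levels within the set spanned a wide range. By mean expected count over all libraries, MT-RNR2, MT-CO1, MT-ND4 and MT-ND2 ranked 2, 3, 5 and 6 among all features. MT-ND6 ranked 10239, and MT-TL1, the most counted tRNA, 14499. On the TPM scale the mean levels in PC3 parental controls ran from 17599 for MT-ND2, 16033 for MT-CO2 and 12755 for MT-CO1 down to 2218 for MT-CYB, 1200 for MT-ND5 and 108 for MT-ND6. The TPM of the shortest genes rests on few usable positions. A TPM unit of MT-ATP8 stood for 3.34% of the counts that a unit of MT-CO1 stood for, although the gene is 13.4% as long, and for MT-ND4L these shares were 8.87% and 19.3%. Some neighbours also share sequence. MT-ATP8 and MT-ATP6 overlap by 46 bases in different reading frames, and MT-ND4L and MT-ND4 by 7, so reads there were divided between them by estimation. The MT-ATP8 and MT-ATP6 overlap (M:8527-8572, GRCh38, plus strand; GENCODE 29) is shown because it makes up a large part of the short MT-ATP8 gene. Its capitals mark the start codon of MT-ATP6.
MT-ATP8/MT-ATP6 overlap: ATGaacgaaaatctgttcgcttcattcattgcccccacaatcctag

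Acetalax changed the balance of the ribosomal RNAs in PC3 parental cells. These genes are neighbours near the start of heavy-strand transcription, separated by the tRNA gene MT-TV. MT-RNR1 stood at 1413, 1897 and 1442 CPM (counts scaled to the library total) in PC3 parental controls and at 3141, 3233 and 2767 CPM with Acetalax. MT-RNR2 stood at 9785, 14276 and 10057 CPM in the same controls and at 6462, 6476 and 5470 CPM with Acetalax. Neither gene's groups overlapped, and the directions were opposite. MT-RNR1 rose by a log2 fold change of 0.97 ± 0.18 (SE; adjusted p = 0.00862, edgeR's quasi-likelihood test with Benjamini-Hochberg adjustment over all genes). MT-RNR2 fell by 0.87 ± 0.15 on the log2 scale (SE; adjusted p = 0.00537, edgeR). The ratio of MT-RNR1 to MT-RNR2 counts thus went from 0.140 ± 0.00635 in controls to 0.497 ± 0.0100 with Acetalax (SD, n = 3 each). The summed rRNA share of mitochondrial counts did not show this, at 21.2% to 22.4% in controls and 21.8% to 23.4% with Acetalax.

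The other cells did not share this pattern. In LNCaP parental cells MT-RNR1 was at 1349, 2142 and 1480 CPM without and 1289, 1168 and 1228 CPM with Acetalax (log2 -0.37 ± 0.20, SE; adjusted p = 0.327, edgeR). The ratio of MT-RNR1 to MT-RNR2 was 0.156 ± 0.0132 without and 0.166 ± 0.0125 with Acetalax there (SD, n = 3 each). The MT-RNR1 response was lower in LNCaP than in PC3 parental cells by a log2 difference of -1.33 (adjusted p = 0.0052, edgeR interaction term). In PC3 CE libraries MT-RNR1 stood at 964, 1116 and 1050 CPM without and at 1818, 1196 and 1110 CPM with Acetalax. The highest of these, 1818 CPM, was the library that stood apart, and the log2 fold change of 0.46 ± 0.18 had an adjusted p of 0.14 (edgeR), or 0.19 at an adjusted p of 0.337 without that library. In LNCaP CE libraries MT-RNR1 stood at 438, 355 and 412 CPM without and at 296, 233 and 189 CPM with Acetalax. These groups did not overlap, but the log2 fold change of -0.65 ± 0.20 had an adjusted p of 0.0737 (edgeR). It passed with DESeq2, at an adjusted p of 0.0149. Here the ratio of MT-RNR1 to MT-RNR2 went from 0.249 ± 0.0148 to 0.145 ± 0.00990 (SD, n = 3 each), lower with Acetalax where PC3 parental cells were higher.

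**Figure D2:**
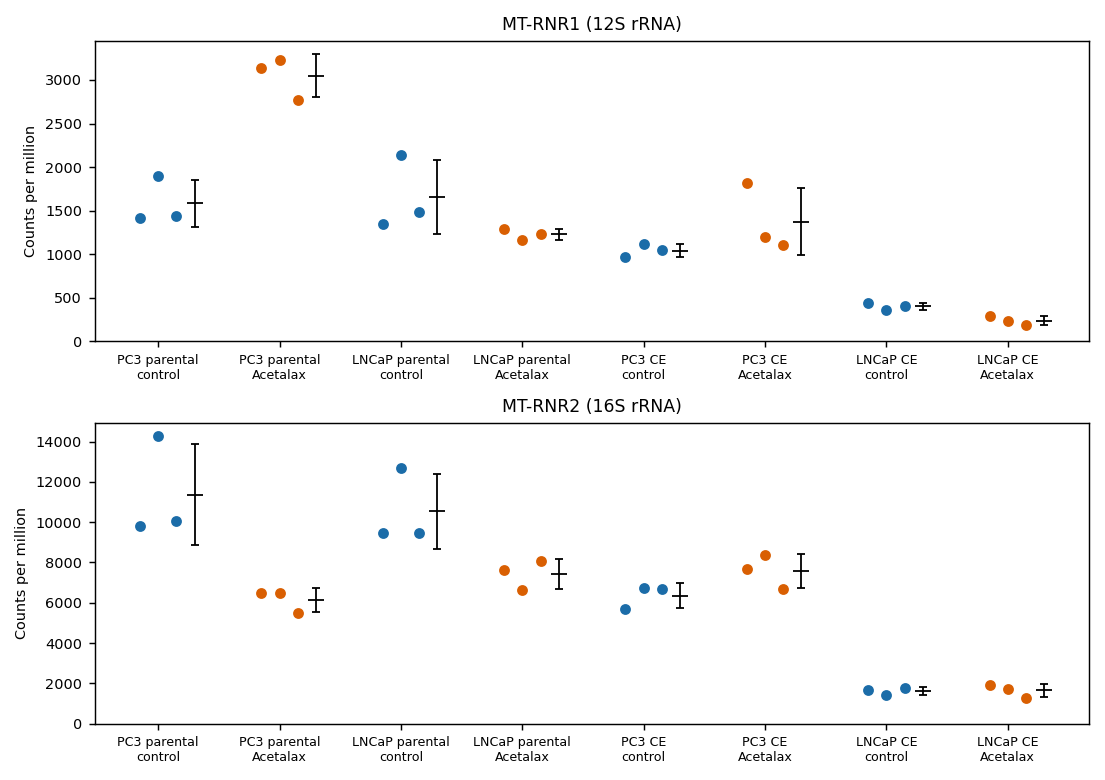
CPM (counts scaled to the library total) of MT-RNR1 (12S rRNA, upper) and MT-RNR2 (16S rRNA, lower) by group. Points are libraries (blue, control; orange, Acetalax), and bars are the mean ± SD of 3. With Acetalax, PC3 parental libraries reach 2767 to 3233 for MT-RNR1, above all other libraries, while their MT-RNR2 lies at 5470 to 6476, below their controls.

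Of the 20 mitochondrial genes that passed the low-count filter in PC3, 5 changed with Acetalax in parental cells, 1 higher and 4 lower. Over all 20049 genes tested there, 7.80% were called, 3.48% higher and 4.32% lower. The members not tested were 17 tRNAs. The 2 rRNAs are given above, and the other 3 encode a complex IV subunit and complex I subunits. MT-CO1, the catalytic subunit of complex IV, stood at 11079, 14040 and 9912 CPM in controls and at 6715, 6406 and 5237 CPM with Acetalax. It fell by 0.91 ± 0.17 on the log2 scale (SE; adjusted p = 0.00667, edgeR). MT-ND3, a small complex I subunit, stood at 1029, 1341 and 1065 CPM in controls and at 498, 545 and 407 CPM with Acetalax. It fell by 1.22 ± 0.21 (SE; adjusted p = 0.00531, edgeR). MT-ND6, the light-strand complex I subunit, stood at 26.9, 33.6 and 17.7 CPM in controls and at 8.4, 6.0 and 6.4 CPM with Acetalax. It fell by 1.89 ± 0.51 (SE; adjusted p = 0.0438, edgeR). No library overlapped between groups for these 3 genes. The MT-ND6 call was lost on leaving out any 1 of the 6 libraries, with adjusted p-values up to 0.171.

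The other protein genes of PC3 parental cells did not pass. The nearest were MT-ND4L (log2 -0.66 ± 0.19, SE; adjusted p = 0.0645, edgeR) and MT-CO2 (-0.85 ± 0.25, SE; adjusted p = 0.0658, edgeR). Both passed with DESeq2, at adjusted p-values of 0.0152 and 0.0135. MT-ATP6, MT-CO3 and MT-CYB, at log2 -0.12, -0.11 and -0.05, were nearest to no difference. The 13 protein genes had a median log2 fold change of -0.47 against 0.00 over all genes tested. Neighbours on one precursor thus had unlike values: MT-ND3 at -1.22 lies between MT-CO3 at -0.11 and MT-ND4L at -0.66. The count ratio of MT-ND3 to MT-CYB was 0.769 to 0.817 in controls and 0.335 to 0.364 with Acetalax. In LNCaP parental cells it was 0.183, 0.261 and 0.191 without and 0.084, 0.103 and 0.264 with Acetalax. It was 0.287 to 0.435 and 0.114 to 0.313 in PC3 CE, and 0.637 to 0.787 and 0.520 to 0.652 in LNCaP CE libraries, with overlap. MT-ND3 itself had log2 fold changes of -0.40 in PC3 CE and -0.27 in LNCaP CE, not called, with all Acetalax libraries below the controls.

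In LNCaP parental cells 1 of 16 tested members was called, the tRNA gene MT-TL1 (tested only through the group in which it was high, as given below), against 8.39% of all 19393 genes tested, 4.03% higher and 4.36% lower. The protein genes had a median log2 fold change of -0.20. MT-CO3 came nearest, at 2086, 2422 and 1903 CPM without and 1326, 1198 and 1671 CPM with Acetalax, without overlap. Its log2 fold change was -0.55 ± 0.16 (SE; adjusted p = 0.0604, edgeR), and it passed with DESeq2 at an adjusted p of 0.00688. MT-ND3 stood at 340, 440 and 317 CPM without and at 149, 160 and 368 CPM with Acetalax. The 368 CPM belonged to the library that stood apart in the hypoxia markers. With all libraries the log2 fold change was -0.62 ± 0.31 (SE; adjusted p = 0.292, edgeR). Without LNCaP parental Acetalax 3 it was -1.19 at an adjusted p of 0.00072. MT-CO3 and MT-ND6 were then also called lower, at -0.70 (adjusted p = 0.00912) and -1.32 (adjusted p = 0.0291, edgeR). That fit kept LNCaP parental control 2, which also stood apart. Each of these 3 genes was called in 1 of 6 fits without a library. In 9 alternatives MT-CO3 was called in 5, MT-ND3 in 1 and MT-ND6 in 0.

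By edgeR with the reported settings, no member was called with Acetalax in CE libraries. In PC3 CE libraries 0 of 20 tested members were called by edgeR against 8.10% of all genes (4.66% higher, 3.43% lower), with 3 at an unadjusted p under 0.05 and 0 called by DESeq2. The protein genes had a median log2 fold change of 0.24. Without PC3 CE Acetalax 3, MT-ND4, MT-CYB and MT-RNR1 were called higher, at log2 values of 0.71, 0.63 and 0.60 (adjusted p = 0.0262, 0.0409 and 0.0494, edgeR). That fit kept PC3 CE Acetalax 1, the library that stood apart. Each of these genes was called in 1 of 6 fits without a library and in 0 of 9 alternatives. In LNCaP CE libraries 0 of 16 were called by edgeR against 7.33% of all genes (3.32% higher, 4.02% lower), with 2 at an unadjusted p under 0.05 and 1, MT-RNR1, called by DESeq2. MT-RNR1 was called in 4 of 9 alternatives and MT-ND3 in 2. The protein genes had a median of -0.02.

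The difference of the PC3 CE and PC3 parental responses passed for 3 members, all with a higher value in CE: MT-RNR2 (log2 difference 1.18, adjusted p = 0.00763), MT-CO1 (1.16, adjusted p = 0.0126) and MT-ND4L (1.06, adjusted p = 0.0379, edgeR interaction terms). Over all genes 8.04% were called in this test, 4.61% with the higher value in CE and 3.43% with the lower. The MT-ND4L call was lost on leaving out any of 8 of the 12 libraries in turn, at adjusted p-values up to 0.105. Without PC3 CE Acetalax 1, MT-ND6 and MT-ND3 passed as higher (2.45 and 1.06) and MT-RNR1 as lower (-0.78; adjusted p = 0.0012, 0.00165 and 0.00289, edgeR). In LNCaP the difference of responses passed for 0 of 16 members by edgeR (1.26% of all genes, 0.572% higher and 0.686% lower; 3 members at an unadjusted p under 0.05). Between the parental lines it passed for MT-RNR1 alone, 1 of 20 against 5.07% of all genes, 1.89% with the lower value in LNCaP and 3.18% with the higher.

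**Figure D3:**
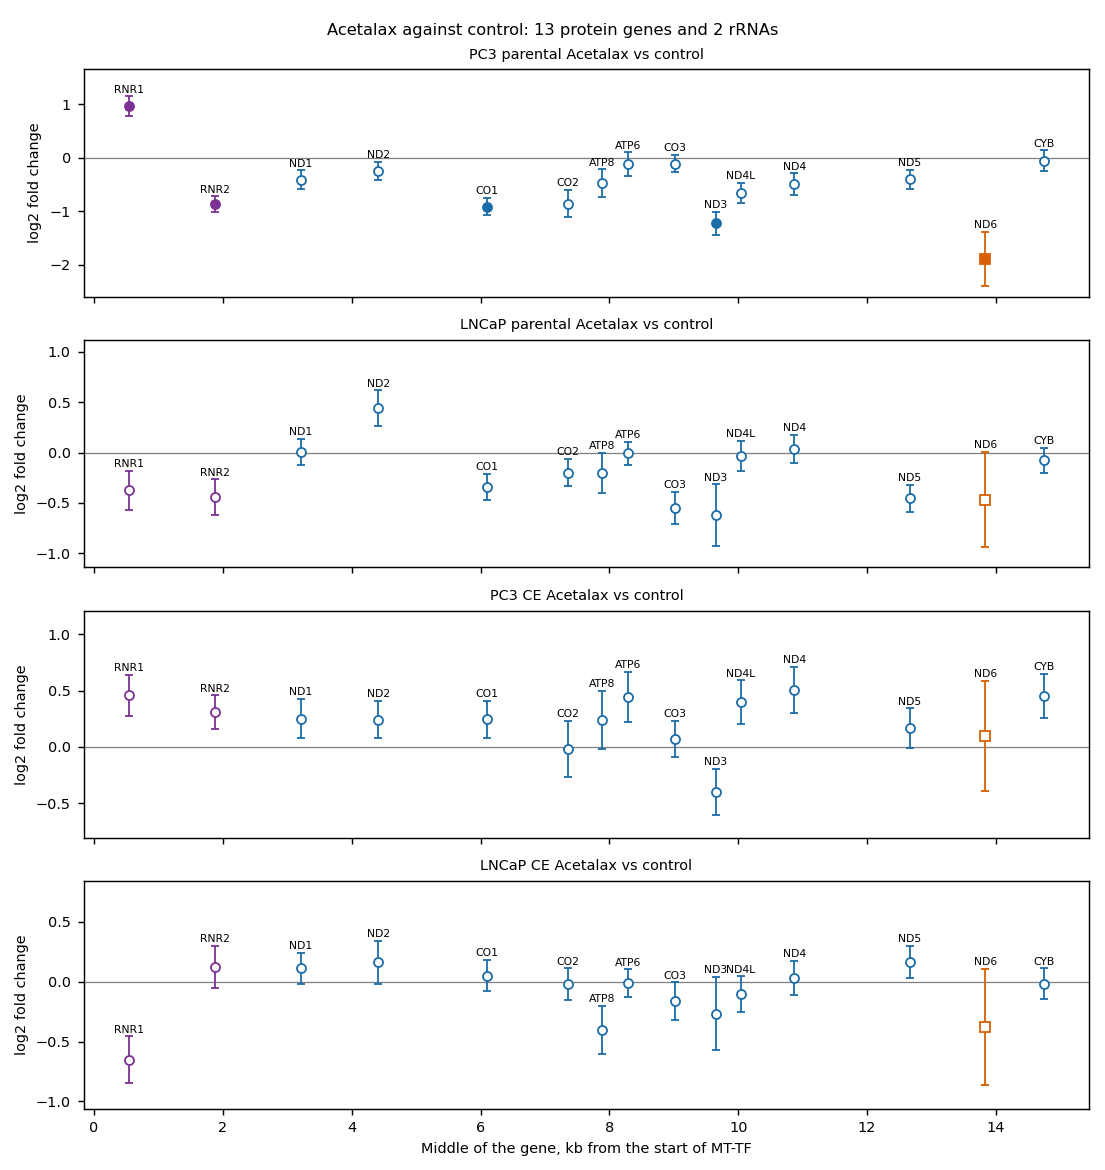
Log2 fold change of Acetalax against control for the 13 protein genes and 2 rRNAs, placed by the middle of each gene in kb from the start of MT-TF. Purple is rRNA, blue heavy-strand and orange (square) light-strand protein genes, bars are ± SE, filled symbols have an adjusted p under 0.05, and the vertical scale differs between panels. Only PC3 parental cells have filled symbols: MT-RNR1 at 0.97 and MT-RNR2, MT-CO1, MT-ND3 and MT-ND6 from -0.87 to -1.89.

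Light-strand genes contributed 0.00785% to 0.0667% of mitochondrial counts, mostly from MT-ND6. Light-strand tRNAs made up the rest. Among them, MT-TE had more counts with Acetalax in PC3 parental cells, where MT-ND6 had fewer. In PC3 parental cells the light-strand share was 0.0516%, 0.0470% and 0.0328% in controls and 0.0204%, 0.0152% and 0.0197% with Acetalax. The log2 ratios in PC3 parental, LNCaP parental, PC3 CE and LNCaP CE cells were -1.23, -0.43, -0.55 and -0.48. Their mean of -0.67 had a 2-sided exact permutation p of 0.0195 (adjusted 0.039 over the 6 tests). The call did not hold without the libraries numbered 1 (p = 0.0895) or 2 (p = 0.227) of each group, by the same exact test. Outside PC3 parental cells single libraries went the other way. LNCaP parental Acetalax 3, at 0.0607%, was above all LNCaP parental controls, and PC3 CE Acetalax 3, at 0.0667%, above all PC3 CE controls. PC3 CE Acetalax 1 was lowest of all at 0.00785%. It and LNCaP parental Acetalax 3 stood apart in the hypoxia markers. The other PC3 CE Acetalax libraries held 0.0363% and 0.0667%, against 0.0371% to 0.0416% in controls. The PC3 CE ratio of -0.55 thus rests on Acetalax 1. The other LNCaP parental Acetalax libraries held 0.0196% and 0.0203%, against 0.0301% to 0.0467% in controls. CE and parental controls had a mean log2 ratio of 0.00 in this share (exact permutation p = 0.99). The kit marks strand, but whether the counting used it was not stated in the sources at hand. Without it the strands cannot be told apart at MT-ND6, MT-TE or the other light-strand genes.

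The tRNAs held 3098 counts over all 24 libraries, and every one of the 22 was listed at 0 TPM in every library. Only 5 had more than 100 counts, MT-TL1, MT-TV, MT-TM, MT-TF and MT-TE, and these held 95.3% of the tRNA counts. MT-TD, MT-TR, MT-TG and MT-TT had 0 counts throughout. The 5 sequences are shown because they are the tRNA genes with enough counts to describe. They are read 5′ to 3′ on the coding strand with the anticodon in capitals, from GENCODE 29 on GRCh38. The coordinates are MT-TL1 M:3230-3304, MT-TV M:1602-1670, MT-TM M:4402-4469 and MT-TF M:577-647 on the plus strand, and MT-TE M:14674-14742 on the minus strand.
MT-TL1: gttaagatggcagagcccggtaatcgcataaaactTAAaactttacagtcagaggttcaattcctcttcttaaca
MT-TV: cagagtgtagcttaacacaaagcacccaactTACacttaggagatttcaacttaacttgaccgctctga
MT-TM: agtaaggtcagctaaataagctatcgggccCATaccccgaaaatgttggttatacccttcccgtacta
MT-TF: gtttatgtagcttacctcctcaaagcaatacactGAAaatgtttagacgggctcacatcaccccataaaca
MT-TE: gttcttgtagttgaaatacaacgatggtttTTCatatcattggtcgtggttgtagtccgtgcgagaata

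MT-TL1, a leucine tRNA, lies directly downstream of MT-RNR2 and contains the binding site of the termination factor MTERF1. In LNCaP parental cells it had 9, 5 and 5 counts in controls and 52, 59 and 59 with Acetalax. The fitted log2 fold change was 3.22 ± 0.38 (SE; adjusted p = 0.000551, edgeR), with a rate ratio of 9.14 over the summed counts (exact interval 5.68 to 15.6, counting error only). Among LNCaP libraries the gene passed the low-count filter only through this Acetalax group, so it was tested because it was high there. Fitted with no filter, its log2 fold change was 3.22 at an adjusted p of 0.000568 (edgeR). In PC3 parental cells it had 82, 205 and 64 counts in controls and 310, 343 and 340 with Acetalax. Groups did not overlap, yet the log2 fold change of 1.43 ± 0.41 had an adjusted p of 0.0575 (edgeR). Without PC3 parental control 2 it was 2.18 at an adjusted p of 0.00686. In CE libraries its summed counts were 24 without and 42 with Acetalax for PC3, and 8 and 21 for LNCaP. Both intervals of the rate ratio included 1 (0.955 to 2.79 and 0.979 to 6.01). The fitted log2 fold changes were 0.74 ± 0.61 and 1.27 ± 0.46 (SE; adjusted p = 0.443 and 0.148, edgeR). Groups overlapped in PC3 CE, while in LNCaP CE all Acetalax libraries lay above the controls.

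MT-TE, the glutamate tRNA on the light strand between MT-ND6 and MT-CYB, also had more counts with Acetalax in parental cells. Its counts were 0, 6 and 2 in PC3 parental controls and 21, 33 and 20 with Acetalax. The log2 fold change was 3.12 ± 0.84 (SE; adjusted p = 0.054, edgeR), and the rate ratio was 8.88 (exact interval 4.28 to 21.3). It too passed the filter only through the group in which it was high, and without PC3 parental control 2 the log2 fold change was 4.50 (adjusted p = 0.0628, edgeR). LNCaP parental cells had 5, 2 and 0 counts without and 8, 14 and 9 with Acetalax, a rate ratio of 4.53 (exact interval 1.955 to 12.2), and there the gene did not pass the filter. In CE libraries it had 2 and 0 counts (PC3) and 1 and 0 counts (LNCaP). MT-ND6, its neighbour on the same strand, had the opposite sign in PC3 parental cells. For both genes the strand of the counted reads is not known, as given above. The other counted tRNAs had rate ratios of 1.06 for MT-TV (valine), 1.01 for MT-TM (methionine) and 1.30 for MT-TF (phenylalanine) in PC3 parental cells, with intervals that included 1. In LNCaP parental cells MT-TV had 4, 3 and 3 counts without and 9, 11 and 14 with Acetalax, a rate ratio of 3.47 (exact interval 1.68 to 7.88). MT-TM (0.954) and MT-TF (0.902) had intervals that included 1 there. These 3 tRNAs did not pass the filter in LNCaP.

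RNAs without poly(A) tails are given beside these. A list of 5 abundant ones held 0.0284%, 0.0144% and 0.0191% of counts in PC3 parental controls and 0.0167%, 0.0206% and 0.0242% with Acetalax, and the groups overlapped. In PC3 CE libraries the list held 0.00619% to 0.00755% without and 0.0103% to 0.0129% with Acetalax, without overlap. In LNCaP parental and LNCaP CE cells the list had overlapping groups. Of its 5 members 1 was called in each of PC3 parental, PC3 CE and LNCaP parental cells and 0 in LNCaP CE cells. RN7SK, a small nuclear RNA, rose in PC3 parental and PC3 CE cells (log2 1.38 and 2.03, adjusted p = 0.047 and 0.0123, edgeR). RPPH1, the RNA of nuclear RNase P, rose in LNCaP parental cells (1.81, adjusted p = 0.0206, edgeR). The 2 nuclear-retained RNAs measured, MALAT1 and NEAT1, summed to 0.157% to 0.222% of counts in PC3 parental controls and 0.264% to 0.288% with Acetalax, but neither was called there. In PC3 CE libraries they summed to 0.0566% to 0.0643% without and 0.0867% to 0.171% with Acetalax, without overlap. Their sums overlapped in LNCaP CE cells and, with all libraries, in LNCaP parental cells. In LNCaP parental cells they were 0.212%, 0.0834% and 0.235% without and 0.305%, 0.288% and 0.120% with Acetalax. The 0.0834% and 0.120% belonged to the libraries that stood apart, and the other libraries did not overlap. Of 41 replication-dependent histone genes tested, 10 rose in PC3 parental cells (3.48% of all genes rose), 8 in PC3 CE cells (4.66%), and 0 in LNCaP parental and LNCaP CE cells, and 0 fell. All 3 PC3 parental Acetalax libraries had a higher histone share than their controls (0.0631% to 0.0715% against 0.0383% to 0.0392%). In PC3 CE the library that stood apart, Acetalax 1, had 0.0312%, against 0.0123% and 0.0127% in the other Acetalax libraries and 0.0109% to 0.0114% in controls. The part of these RNAs in the tRNA and rRNA differences was not tested.

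Between lines and between CE and parental controls, far more members differed, as did far more genes overall. In PC3, CE against parental controls, 15 of 20 tested members were called, 2 higher and 13 lower, where 77.5% of all genes were called, 38.5% higher and 38.9% lower. MT-ND2, a complex I subunit, stood at 8931, 11895 and 10069 CPM in parental and at 2078, 2568 and 2524 CPM in CE controls (log2 -2.12 ± 0.17, SE; adjusted p = 3.25e-07, edgeR). The members higher in CE were MT-CO3, at 1286, 1697 and 1219 CPM in parental and 3066, 3612 and 3576 CPM in CE controls, and MT-ND5, at 1219, 1543 and 1177 and at 2079, 2857 and 2579 CPM. Their log2 fold changes were 1.27 ± 0.16 and 0.92 ± 0.18 (SE; adjusted p = 1.86e-05 and 0.000535, edgeR). The protein genes called lower besides MT-ND2 were MT-CO1 (-0.94), MT-ND1 (-0.86), MT-CO2 (-0.73), MT-ND3 (-0.73), MT-ND4L (-0.58) and MT-ND4 (-0.48). Both rRNAs were lower as well, MT-RNR2 at -0.85 and MT-RNR1 at -0.62. The MT-ND4 call, at an adjusted p of 0.0478, was lost on leaving out any of the libraries but PC3 parental control 1, with adjusted p-values up to 0.207. Without PC3 parental control 2 or PC3 CE control 1, the calls of MT-CO2 (adjusted p = 0.0891 and 0.0769) and MT-ND4L (0.0972 and 0.0672, edgeR) were lost too.

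Counted tRNAs were lower in PC3 CE than in PC3 parental controls. MT-TL1 had 82, 205 and 64 counts in parental and 9, 11 and 4 in CE controls, 16.7 times more in parental cells (exact interval 11.05 to 26.45, counting error only). MT-TM had 164 against 3 summed counts, a ratio of 62.5 (21.0 to 306), and MT-TF 60 against 3, a ratio of 22.9 (7.46 to 114). MT-TV had 223 against 34, a ratio of 7.50 (5.21 to 11.1). All 4 were called by edgeR. MT-TM and MT-TF passed the filter only through parental libraries, in which they were high. Fitted with no filter, the 4 adjusted p-values ran from 1.52e-06 to 0.001. PC3 parental control 2 supplied 205 of the 351 MT-TL1 counts. Without it the fitted log2 fold changes of MT-TL1, MT-TM and MT-TV were -3.33, -5.07 and -2.25, against -4.09, -5.83 and -2.95 with it. Without PC3 CE control 2, MT-TM and MT-TF stood at -6.69 and -5.23, and without PC3 CE control 3, MT-TV stood at -3.81. All remained called in these fits.

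In LNCaP, CE against parental controls, 12 of 16 tested members were called and all 12 were lower, where 75.1% of all genes were called, 35.9% higher and 39.2% lower. The rRNAs differed most. MT-RNR2 stood at 9469, 12689 and 9467 CPM in parental and at 1671, 1406 and 1768 CPM in CE controls (log2 -2.53 ± 0.19, SE; adjusted p = 3.08e-07, edgeR). MT-RNR1 had a log2 fold change of -1.87 ± 0.20 (SE; adjusted p = 7.85e-06, edgeR). MT-CYB, at 1854, 1686 and 1660 against 723, 642 and 780 CPM, had a log2 fold change of -1.10 ± 0.13 (SE; adjusted p = 1.45e-05, edgeR). The rRNA share of mitochondrial counts was 30.8% to 40.9% in LNCaP parental and 13.6% to 14.6% in LNCaP CE controls, but 21.2% to 22.4% and 19.3% to 20.4% in PC3. The mean log2 ratio over both lines was -0.71 (exact permutation p = 0.005, adjusted 0.015), made up of -0.13 in PC3 and -1.29 in LNCaP. MT-ND3, MT-CO3, MT-ND6 and MT-TL1 were not called by edgeR with the reported settings. In 9 alternatives MT-CO3 and MT-ND6 were called in 5 and MT-ND3 in 4. Among the called members, MT-ND5 kept its call in 4 of 6 fits without a library and MT-ND2 in 5. Their adjusted p-values reached 0.0750 and 0.0563 (edgeR), and the other calls held in every such fit. MT-ND3 was the only tested member whose CE controls all lay above the parental ones (492, 505 and 497 against 340, 440 and 317 CPM), at log2 0.62 ± 0.31 (SE; adjusted p = 0.0873, edgeR).

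Between parental lines, 13 of 20 tested members were called, 1 higher and 12 lower in LNCaP, where 70.3% of all genes were called, 35.5% higher and 34.7% lower. MT-ND2 again differed most among the protein genes, at 1855, 2048 and 1653 CPM in LNCaP against 8931 to 11895 CPM in PC3 parental controls (log2 -2.54 ± 0.19, SE; adjusted p = 1.46e-10, edgeR). MT-ND3 (-1.71), MT-CO2 (-1.46), MT-ND1 (-1.42), MT-CO1 (-1.12), MT-ND4 (-0.88), MT-ND4L (-0.84) and MT-ATP8 (-0.61, with overlapping libraries) followed, and MT-CO3 was higher in LNCaP (0.55 ± 0.16, SE; adjusted p = 0.00536, edgeR). Among tRNAs, PC3 parental controls had 20.7 times more MT-TL1 (exact interval 13.0 to 34.8), 24.96 times more MT-TV (13.3 to 52.8), 12.2 times more MT-TM and 3.95 times more MT-TF, all 4 called by edgeR. MT-TM and MT-TF passed the filter only through PC3 parental libraries, in which they were high. With no filter the 4 adjusted p-values ran from 8.95e-10 to 0.0189. Without PC3 parental control 2 the log2 fold changes of MT-TL1, MT-TV and MT-TM were -3.67, -3.97 and -2.94, against -4.43, -4.67 and -3.70 with it. The MT-TF call was lost without that library or without LNCaP parental control 1 or 3 (adjusted p = 0.0863, 0.0614 and 0.0574, edgeR). Without LNCaP parental control 2, MT-TF stood at -3.12 and MT-TM at -4.33. The MT-ATP8 call was lost without PC3 parental control 2 or without LNCaP parental control 2 or 3 (adjusted p = 0.471, 0.0734 and 0.0785, edgeR). MT-RNR1 (0.00 ± 0.19) and MT-RNR2 (-0.17 ± 0.17, SE) were not called. Between CE controls, 13 of 20 were called, all lower in LNCaP CE, where 41.0% of all genes were called, 16.7% higher and 24.2% lower. These were both rRNAs and 11 protein genes, with MT-RNR2 (-1.88), MT-CO2 (-1.45) and MT-CYB (-1.37) farthest. Only MT-ND3 (-0.39 ± 0.27, SE; adjusted p = 0.266) and MT-ND6 (-1.17 ± 0.51, SE; adjusted p = 0.076, edgeR) among the protein genes did not pass.

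**Figure D4:**
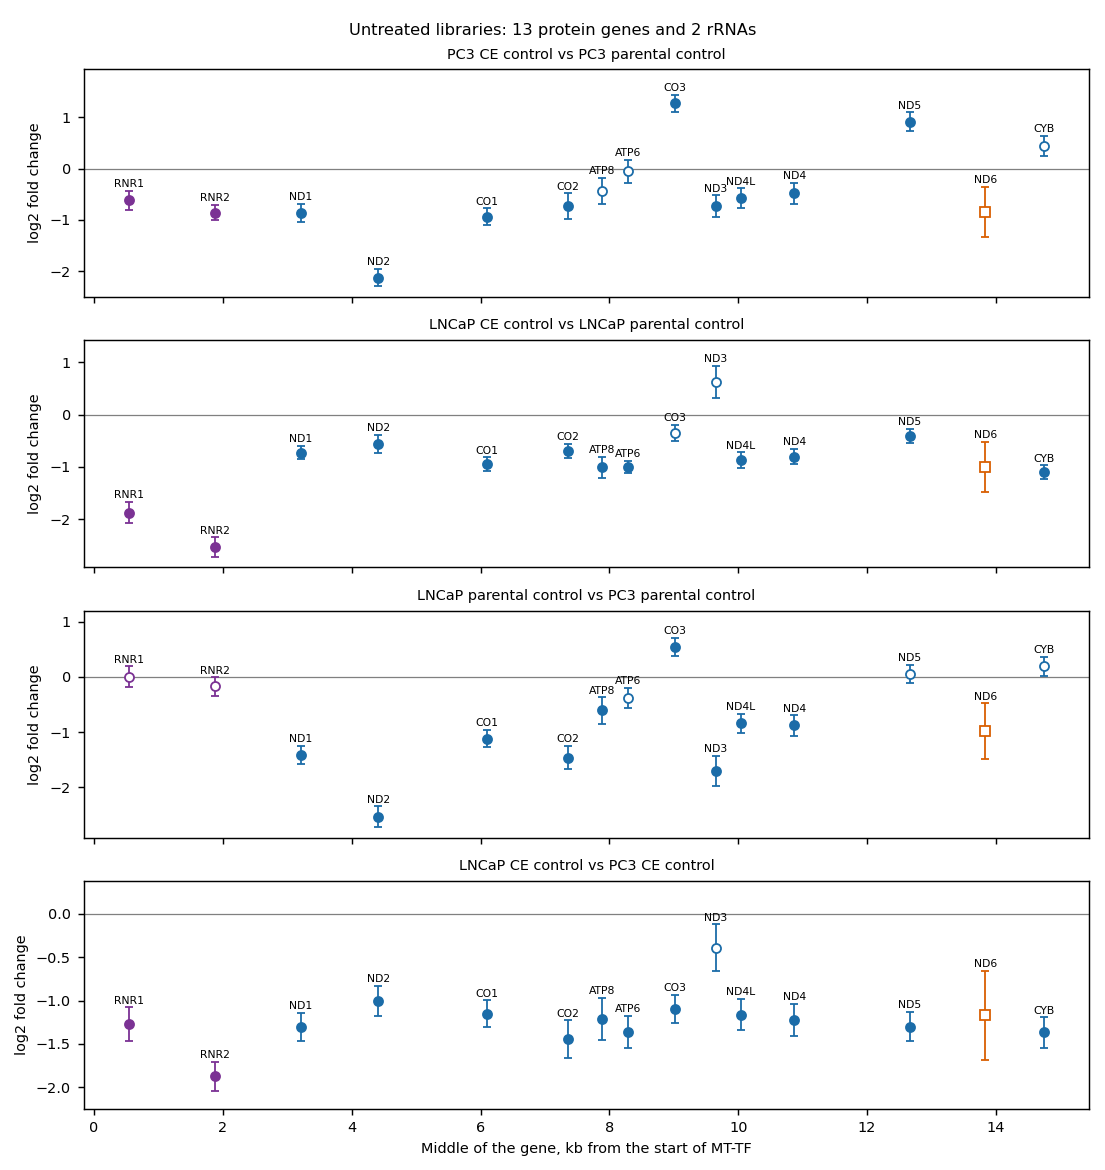
Log2 fold change between untreated groups for the 13 protein genes and 2 rRNAs, placed as in the plot of Acetalax responses, with the same symbols, and with vertical scales that differ between panels. MT-ND2 lies lowest where PC3 parental controls are the reference (-2.12 and -2.54), and the rRNAs lie lowest in LNCaP CE against LNCaP parental controls (-2.53 and -1.87).

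Reads of the mitochondrial genome can also be assigned to its copies in nuclear chromosomes, of which 415 were annotated and 7 had a mean count over 10. Such copies held 0.898% to 2.97% as many counts as the 37 genes. For MT-ND1 and MT-ND2 the division differed between CE and parental libraries. MTND1P23 (chr1:629062-629433, GRCh38, plus strand), a copy of a stretch near the end of MT-ND1, had 81.7 ± 49.5 counts in PC3 parental and 36.2 ± 14.9 in LNCaP parental controls. It had 7341 ± 1283 in PC3 CE and 2800 ± 280 in LNCaP CE controls (SD, n = 3 each). As a share of MT-ND1 counts this was 0.0172% to 0.0632% in all 12 parental libraries and 4.96% to 6.14% in all 12 CE libraries. This share overlapped between PC3 CE controls (5.72% ± 0.145) and LNCaP CE controls (5.94% ± 0.332, SD, n = 3 each). MTND2P28 (chr1:629640-630683) had 2.86% to 4.35% of the counts of MT-ND2 in parental and 16.1% to 22.5% in CE libraries. The copies MTATP6P1 and MTCO1P12 did not separate the libraries: they had 13.0% to 17.4% of MT-ATP6 counts and 0.171% to 0.274% of MT-CO1 counts. A copy of part of MT-ND4, MTND4P24, had 0 or 1 count in each parental library and 11 to 120 in each CE library.

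MTND1P23 differs from MT-ND1 at 2 of 349 aligned bases, G742A and A798G, with positions counted from 1 at the 5′ end of MT-ND1 and the MT-ND1 base first. The stretches around them are shown because they hold every base that differs within the aligned part. The copy is 372 bases long, and its bases outside the alignment, which may also tell reads apart, are not shown. They are reference sequence from GENCODE 29, with the differing base in capitals.
MT-ND1 bases 717 to 767: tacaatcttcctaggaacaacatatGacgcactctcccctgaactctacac
MTND1P23 bases 132 to 182: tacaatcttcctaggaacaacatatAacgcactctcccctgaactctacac
MT-ND1 bases 773 to 823: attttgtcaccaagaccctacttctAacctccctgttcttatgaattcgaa
MTND1P23 bases 188 to 238: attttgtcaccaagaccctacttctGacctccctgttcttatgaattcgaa

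MTND2P28 differs from MT-ND2 at 17 of 1042 bases, so reads there can be placed at more positions. Summed with its copy, MT-ND2 stood at 10679 CPM in PC3 parental and 2881 CPM in PC3 CE controls, a log2 ratio of means of -1.89 against -2.11 for the gene alone. In LNCaP the summed value was -0.52 against -0.74 alone. For MT-ND1 the summed values were -0.77 in PC3 and -0.82 in LNCaP, against -0.85 and -0.90 alone. These ratios are of plain CPM, without the scaling of the fitted model.

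**Figure D5:**
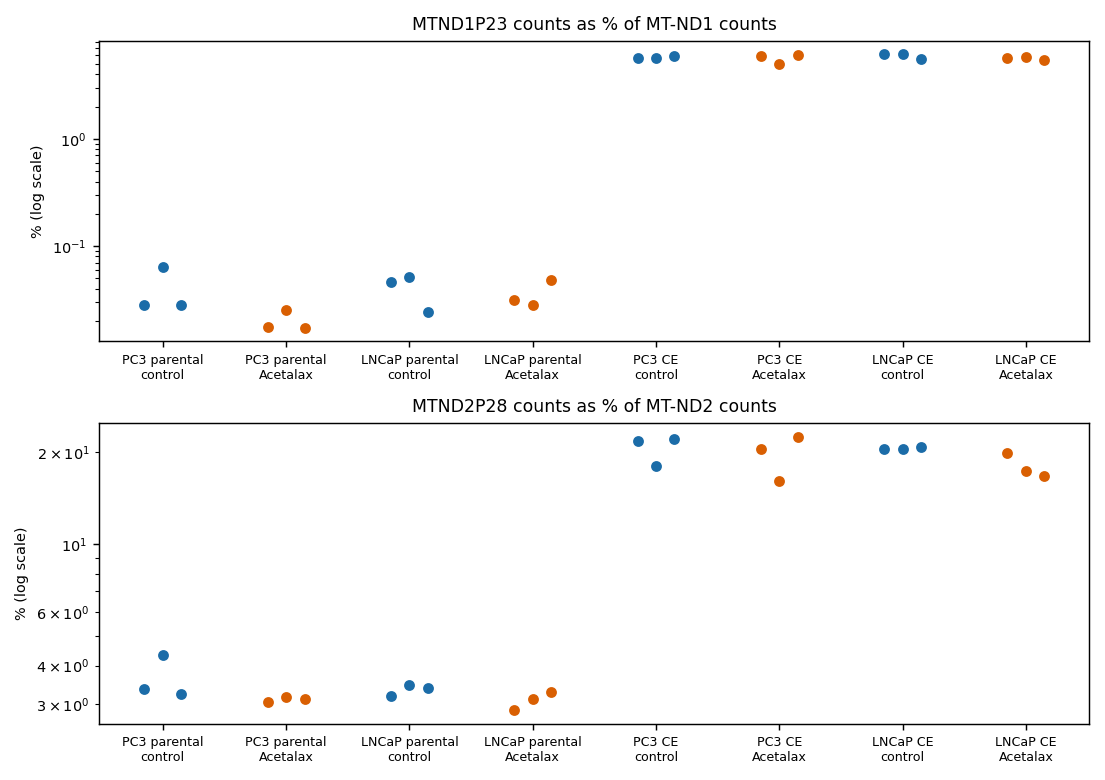
Counts of the nuclear copies MTND1P23 (upper, as % of MT-ND1 counts) and MTND2P28 (lower, as % of MT-ND2 counts) in each library, on log scales. Blue is control and orange Acetalax. Libraries labelled CE lie at 4.96% to 6.14% and 16.1% to 22.5%, parental libraries at 0.0172% to 0.0632% and 2.86% to 4.35%.

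Nuclear genes for mitochondrial gene expression were counted beside the members. Among 19 genes of mitochondrial DNA transcription and replication, 2 rose and 1 fell with Acetalax in PC3 parental, 0 and 3 in LNCaP parental, 0 and 5 in PC3 CE and 0 and 2 in LNCaP CE cells. Over all genes 7.80%, 8.39%, 8.10% and 7.33% were called in these comparisons, a background that applies to all lists here. The medians of the 19 log2 fold changes were -0.11, -0.17, -0.28 and -0.17. TFB1M, the methyltransferase that modifies 12S rRNA, fell in PC3 parental (-0.60 ± 0.12, SE; adjusted p = 0.00979) and LNCaP parental cells (-0.81 ± 0.12, SE; adjusted p = 0.00227, edgeR). MTERF1, whose site lies in MT-TL1, fell in LNCaP parental (-0.85), PC3 CE (-0.95) and LNCaP CE cells (-0.91; adjusted p = 0.0161, 0.00123 and 0.0140, edgeR). In PC3 parental cells it stood at 0.11 ± 0.12 (SE; adjusted p = 0.70, edgeR).

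Among 20 genes of mitochondrial RNA processing and decay, 0 rose and 2, 4, 3 and 2 fell in PC3 parental, LNCaP parental, PC3 CE and LNCaP CE cells. MTPAP, the mitochondrial poly(A) polymerase, fell by 0.70 ± 0.10 on the log2 scale (SE; adjusted p = 0.00239, edgeR) in PC3 parental cells, and SUPV3L1, the helicase of the RNA-degrading complex, fell by 0.51 ± 0.11 (SE; adjusted p = 0.0132). MTPAP was at -0.06 and -0.01 in LNCaP parental and LNCaP CE and at -0.15 in PC3 CE cells, none called. From a list of 19 mitochondrial aminoacyl-tRNA synthetase genes, only the prolyl-tRNA synthetase gene PARS2 is named, and calls of the others are not given. The values of PARS2 describe that gene alone and not the list. PARS2 fell in all 4 kinds of cells, by 1.25 in PC3 parental, 1.89 in LNCaP parental, 0.55 in PC3 CE and 1.04 in LNCaP CE cells (adjusted p = 0.000908, 0.00144, 0.0340 and 0.0335, edgeR). Of the 77 mitoribosomal protein genes, 3 rose and 6 fell in PC3 parental and 0 rose and 10 fell in PC3 CE cells. LNCaP parental had 0 and 1, and LNCaP CE 1 and 0. The background in PC3 was 3.48% higher and 4.32% lower in parental and 4.66% higher and 3.43% lower in CE cells.

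Of the 78 nuclear respiratory chain subunits, at most 3 were called with Acetalax in any of the 4 kinds of cells. In PC3 parental cells COX4I1 of complex IV rose (0.38 ± 0.09, SE), while NDUFA5 of complex I (-0.49 ± 0.11, SE) and UQCRFS1 of complex III (-0.33 ± 0.09, SE) fell (adjusted p = 0.0198, 0.0215 and 0.0406, edgeR). In CE against parental controls, 29 were higher and 20 lower in PC3 and 25 higher and 10 lower in LNCaP, with medians of 0.12 and 0.20 against -0.01 and -0.06 over all genes. Over all genes 38.5% were higher and 38.9% lower in PC3, and 35.9% higher and 39.2% lower in LNCaP. The 13 mitochondrial protein genes had medians of -0.58 and -0.80 in the same comparisons.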

How the data were processed

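Per the labels' protocols, poly(A) RNA of 24 samples was sequenced from strand-directional libraries. The submitters' processing notes list FastQC, STAR 2.7, RSEM and GRCh38 (hg38). Annotation release and strand setting: not given in the sources used here. The authors deposited RSEM expected counts (10.195% of values not whole, rounded here) and TPM values. A column of no sample in each table, 2 in all, was not used. All 37 members matched GENCODE 29 by versioned identifier.

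Genes were tested with edgeR 4.0.16 (R 4.3.3), TMM scaling, filterByExpr at a minimum count of 10 and Benjamini-Hochberg adjustment over all genes at 0.05, on the 12 libraries of a line or all 24 across lines. SEs derive from the fold change and its F value. Shares were tested by exact permutation within strata, since an exact test of 3 against 3 libraries cannot go below p = 0.1. Simulated data for the PC3 parental Acetalax comparison (19334 genes) recovered 48 of 99 genes changed by a log2 of 1 and 13 of 97 changed by 0.58, with 6 false calls. Alternatives were RLE scaling, scaling without the mitochondrial genes, no filter, DESeq2 1.42.0, limma 3.58.1 on log2(TPM + 1) and log2(TPM + 0.1), a replicate block, only the libraries compared, and left-out libraries. Counting intervals are exact at 95% and cover counting error only.

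The rule for names took all members, tRNAs that were called or most counted, and up to 2 largest rises and 2 largest falls of other lists; other list genes were named after their values were seen. Members and lists were chosen with earlier results of these data known. Whether replicates came from separate cultures is not in the labels. The p-values therefore reflect spread among the libraries as sequenced, part of which may be technical. Every pair of replicates differed by more than sampling noise. All samples carry batch 1.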

Additional observations from a re-analysis of the deposited data

Results flagged for a closer look

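In 4 cases the Acetalax response of a mitochondrial gene differed between groups by edgeR's interaction test with Benjamini-Hochberg adjustment. MT-RNR2 (log2 difference 1.18), MT-CO1 (1.16) and MT-ND4L (1.06) had a higher response in PC3 CE than in PC3 parental libraries. MT-RNR1 had a lower response in LNCaP parental than in PC3 parental libraries (-1.33). The adjusted p-values were 0.00763, 0.0126, 0.0379 and 0.0052. MT-RNR2 and MT-CO1 kept the call in all 9 alternative settings and in all 12 fits without 1 library, as did MT-RNR1. MT-ND4L kept it in 4 of the 9 and 4 of the 12.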

How the results depend on the processing

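The number of mitochondrial genes called moved with the tool and with the libraries that set the spread. For Acetalax in PC3 parental cells the 5 calls became 8 with DESeq2, 9 without the 3 libraries that stood apart and 10 with only the libraries compared. Of these 3 libraries, the fits of PC3 dropped only PC3 CE Acetalax 1. The fits of LNCaP dropped LNCaP parental control 2 and LNCaP parental Acetalax 3. For Acetalax in PC3 parental and LNCaP CE cells, none of the libraries compared was dropped. In LNCaP parental cells the 1 call became 2 with RLE scaling and 3 with DESeq2 or without those 3 libraries. In LNCaP CE cells 0 became 1 with DESeq2, with limma under either pseudocount and with only the libraries compared, and 2 without the 3 libraries. For the difference of PC3 responses 3 became 5 with DESeq2 and without the 3 libraries, and for LNCaP 0 became 1 without them. With limma, which gave no value for tRNAs because their TPM was 0, the 15 calls of PC3 CE against parental controls became 8 (pseudocount 1) and 9 (0.1), and the 13 between parental lines became 8 with both. MT-ATP8 between parental lines was called in 4 of 9 alternatives.

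Leaving out single libraries gave 4 to 5 calls for Acetalax in PC3 parental, 0 to 3 in PC3 CE and 1 to 4 in LNCaP parental cells. It gave 2 to 5 for the difference of PC3 responses, 0 to 1 for that of LNCaP and 1 to 2 between parental lines. The lowest and highest log2 ratios without libraries 1, 2 or 3 of each group were -1.07 and -0.888 for the mitochondrial share in CE, -0.990 and -0.500 for the light-strand share with Acetalax, -0.0209 and 0.0341 for that share in CE, -0.0560 and 0.0329 for the rRNA share with Acetalax, and -0.782 and -0.615 for the rRNA share in CE. The CE comparisons of mitochondrial and rRNA share then had p = 0.0556 by the exact permutation test, the smallest that design allows. The light-strand share in CE was -0.153 from TPM and -0.212 over protein genes alone. The cause of these shifts was not tested.

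Of 24 pairs of same-numbered libraries, 1 had deviations that correlated above 0.1. In LNCaP parental cells, Acetalax against control, the correlations were 0.638, -0.678 and -0.756 for libraries 1, 2 and 3. Control 2 and Acetalax 3 of these cells were the libraries that stood apart from their groups. All other pairs lay between -0.106 and 0.097. With a replicate block, 6 members were called for Acetalax in PC3 parental cells, 16 for PC3 CE against parental controls and 2 for the difference of PC3 responses. Over all genes, calls for Acetalax ran over the settings from 572 to 5595 in PC3 parental (1564 as reported), 162 to 3353 in PC3 CE (1623), 111 to 5331 in LNCaP parental (1627) and 524 to 7951 in LNCaP CE cells (1422), and for the differences of responses from 773 to 4602 (PC3), 55 to 3914 (LNCaP) and 692 to 4320 (between lines). For the 17 tRNAs with at most 100 counts in all libraries together no comparison of single genes is given.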
